A study of Homo sapiens with 6 samples.

Results

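The 10 genes described here encode subunits of oligosaccharyltransferase, the enzyme complex of the endoplasmic reticulum (ER) that glycosylates proteins on asparagine. They are *DAD1*, *DDOST*, *RPN1*, *RPN2*, *STT3A*, *STT3B*, *OST4*, *OSTC*, *TUSC3* and *KRTCAP2*, taken by symbol and matched to Ensembl identifiers, 10 of the 58243 genes in the count files. All 10 passed the filter on low counts, which kept 23884 genes. The set was chosen by the PRL3 against EV difference in the normalized counts of *DAD1*, picked for its small p there, and by membership of the complex for the rest. That comparison was already known when the set was drawn up, so the differences of these 10 genes between the groups are described below without p-values.

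Nascent RNA was sequenced in A375 cells, a human melanoma cell line, after a pulse of 500 µM 4-thiouridine (4sU) for 20 min, which marks RNA made during the pulse so that it can be tagged with biotin and pulled down. The EV group (libraries B1, B2 and B3) carried an empty vector, and the PRL3 group (libraries B9, B10 and B11) carried a plasmid for human PRL3, a tyrosine phosphatase, tagged with HA. Lines of both groups were made by stable transfection and kept in hygromycin B. Whether each line was a single clone, and whether the 3 libraries of a group came from separate cultures, was not given in the sources used here, so the p-values below measure only the spread between these libraries.

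*PTP4A3*, the gene of PRL3, had 217 ± 59.4 normalized counts (SD, n = 3) in EV and 24387 ± 3796 (SD, n = 3) in PRL3, as the labels would have it. Reads on genes numbered between 36532207 and 57952035 per library, and the 10 subunit genes held between 34183 and 83427 of them. The share of uniquely aligned reads that lay on no annotated exon was 33.3% ± 6.75 (SD, n = 3) in EV and 66.3% ± 3.18 (SD, n = 3) in PRL3, so this property of the libraries moved together with every difference below, and its part in them was not tested. Uniquely aligned reads set aside as ambiguous between genes also differed, at 4.46% to 5.01% in EV and 1.67% to 2.53% in PRL3. Their part was not tested either. Of 9 melanoma and melanocyte markers, 5 were tested (*SOX10*, *AXL*, *MITF*, *S100B* and *PMEL*), and the list of 9 summed to between 40969 and 51944 normalized counts in EV and between 26243 and 30943 in PRL3. It was thus lower in PRL3 on the scale used below. By CPM (counts scaled to a common library size, without TMM) it came to between 713 and 899 in EV and between 662 and 806 in PRL3, with overlap. Within the list *SOX10* (18852 to 28364 in EV, 10593 to 13992 in PRL3), *AXL* (17431 to 19143, 12711 to 14176) and *S100B* (2342 to 3164, 1053 to 1121) were lower in normalized counts. *MITF* (1208 to 1492, 1714 to 1809) was higher, and *PMEL* overlapped between the groups. The part of these markers in the differences below was not tested. The pigment genes *MLANA*, *TYR*, *TYRP1* and *DCT* stayed at or under 20 counts in every library. Of 7 markers of other cell types, *KRT14* and *EPCAM* passed the filter, and the 7 together came to between 1091 and 1240 normalized counts in EV and between 387 and 640 in PRL3 (19.0 to 23.5 and 9.76 to 15.2 CPM). Nearly all of this sum was *KRT14* (1083 to 1217 in EV, 352 to 614 in PRL3). *EPCAM* had 2.44 to 10.0 in EV and 8.24 to 17.2 in PRL3, with overlap. The rest stayed at or under 12 counts in every library.

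Oligosaccharyltransferase moves a preassembled sugar tree from the lipid dolichol onto asparagine in the sequence asparagine-X-serine or asparagine-X-threonine while a protein enters the ER. The catalytic subunit is either STT3A, whose complex sits at the translocon and works on chains as they are being made, or STT3B, whose complex also reaches sites that STT3A skipped. RPN1, RPN2, DDOST, DAD1, OST4 and TMEM258 are shared by both complexes, OSTC and KRTCAP2 join the STT3A complex to the translocon, and TUSC3 or its paralog MAGT1 is the oxidoreductase of the STT3B complex.

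*DAD1* and *OST4* encode small proteins of the shared core and had the lowest log2 fold changes of the 10 genes, so their sequences are shown. Their coding sequences were read from the canonical transcripts of GENCODE release 44 (GRCh38), on the minus strand of chr14:22575103-22589157 for *DAD1* (342 bases in a transcript of 684) and of chr2:27071349-27071462 for *OST4* (114 bases in a transcript of 442). All of *OST4* and the first 300 bases of *DAD1* are printed, with the start codon, and for *OST4* the stop codon, in capitals.
DAD1 coding, first 300 bases: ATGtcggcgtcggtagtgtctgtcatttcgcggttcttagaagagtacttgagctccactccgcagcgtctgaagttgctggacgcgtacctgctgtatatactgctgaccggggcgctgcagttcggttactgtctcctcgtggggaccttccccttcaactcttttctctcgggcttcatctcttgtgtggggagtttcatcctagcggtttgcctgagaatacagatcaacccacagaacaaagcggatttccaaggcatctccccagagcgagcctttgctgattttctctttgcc
OST4 coding: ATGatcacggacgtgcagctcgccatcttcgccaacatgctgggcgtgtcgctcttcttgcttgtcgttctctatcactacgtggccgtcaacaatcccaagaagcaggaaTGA
The open reading frame of *DAD1* encodes 113 residues, and that of *OST4* encodes 37 residues, little more than a single membrane-spanning segment.

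Upstream sequence was available for 7 of the 10 genes in the RefSeq table used here (GRCh38.p14). The 250 bases before the start of *DAD1* and *OST4*, the genes with the largest differences, lie at chr14:22589225-22589474 and chr2:27071655-27071904, both on the minus strand. Capitals mark a CCAAT box read on either strand.
DAD1 upstream: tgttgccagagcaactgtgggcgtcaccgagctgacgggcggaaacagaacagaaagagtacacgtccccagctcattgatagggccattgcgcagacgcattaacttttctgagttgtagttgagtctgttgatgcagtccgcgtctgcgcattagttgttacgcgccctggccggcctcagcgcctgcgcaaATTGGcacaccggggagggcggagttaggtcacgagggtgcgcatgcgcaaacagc
OST4 upstream: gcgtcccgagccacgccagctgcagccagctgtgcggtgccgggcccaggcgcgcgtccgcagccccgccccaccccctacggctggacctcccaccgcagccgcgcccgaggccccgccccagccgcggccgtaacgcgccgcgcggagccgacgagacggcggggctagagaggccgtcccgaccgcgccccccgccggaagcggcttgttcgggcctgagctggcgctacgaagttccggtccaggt
The *DAD1* window held 1 CCAAT box, on the reverse strand, and 2 GC boxes (GGGCGG), with a GC content of 58.0%. The *OST4* window held 2 GC boxes and no CCAAT box, with a GC content of 78.4%. Searched on both strands in the same 250 bases of 35116 promoters, the CCAAT box was found in 32.0% and the GC box in 42.6%. The E-box CACGTG (6.34% of promoters) had 1 match among the 7 windows, in *DDOST*, which also held 2 CCAAT boxes, as did *STT3A*. *KRTCAP2* had 1 CCAAT box and 1 GC box, *OSTC* had 1 GC box, and *RPN2* had none of the motifs searched. None of the 7 windows held CATGTG (9.42% of promoters), TATAAA (10.7%) or the full ER stress element (0.074%), a longer motif that begins with a CCAAT box.

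Counts on the exons of 9 of the 10 subunit genes were lower in PRL3 than in EV, and those of *KRTCAP2* were higher. The differences ran from 5.35-fold lower for *DAD1* to 1.47-fold lower for *TUSC3*, against 2.0-fold higher for *KRTCAP2*. The authors turned to intronic reads to keep out possible effects of splicing during transcription and of carried-over mRNA. Intronic reads were not analysed here, so whether nascent RNA of these genes differed in the same way was not tested. At an adjusted p of 0.05 in the fit of all genes (edgeR quasi-likelihood, Benjamini-Hochberg), 9 were called lower and 1 higher, where 22.7% of all tested genes were called lower and 20.0% higher. Among the 14443 protein-coding genes tested these shares were 31.6% and 15.2%. All 10 genes had EV and PRL3 values without overlap (26.6% of all tested genes were lower and 29.7% higher without overlap, and 36.7% and 22.2% of the protein-coding ones). In 5 genes the log2 fold change was below -1, a value passed by 15.6% of all tested genes and 17.9% of the protein-coding ones. Since the genes were chosen with this comparison known, nothing is read from these counts.

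**Figure D1:**
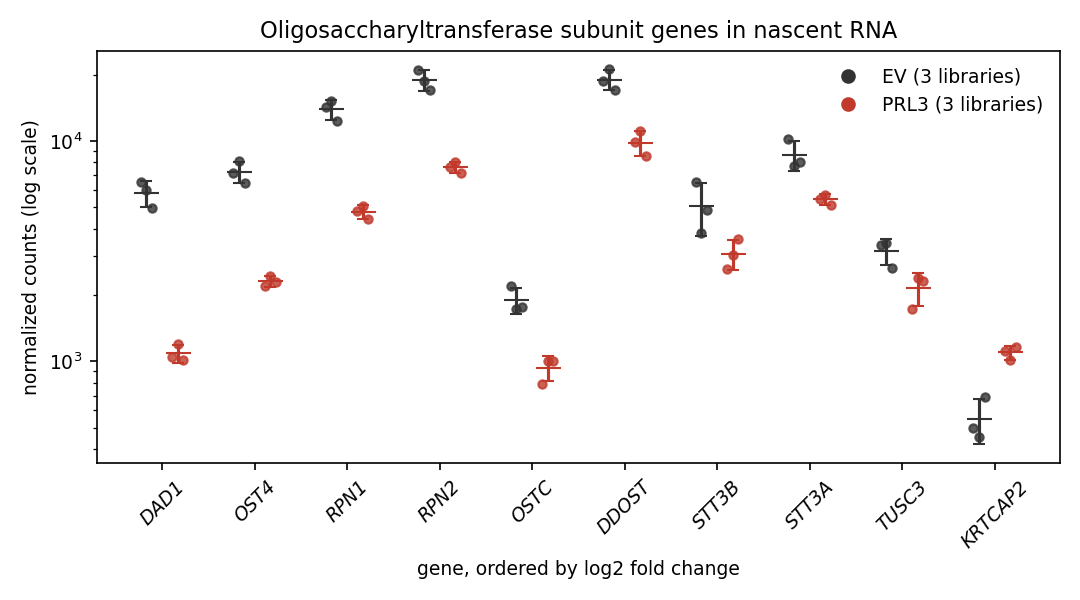
Normalized counts (log axis) of each subunit gene in the 3 EV libraries (black) and the 3 PRL3 libraries (red), with points for libraries and bars for the mean ± SD. The red points lie below the black ones in 9 genes and above them in *KRTCAP2*.

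The shared core was read first. *DAD1* (chromosome 14, 22564907 to 22589224, minus strand), named as a defender against cell death after a hamster line in which its loss led to apoptosis, had 6486, 5978 and 4972 normalized counts in EV libraries B1, B2 and B3. In PRL3 libraries B9, B10 and B11 it had 1044, 1199 and 1016. The lowest EV library stood far above the highest PRL3 library, and the 3 PRL3 libraries lay close together. The raw counts behind these values were 5326, 4969 and 5468 in EV and 1014, 1611 and 948 in PRL3. The log2 fold change was -2.42 (standard error 0.16), and 0.672% of the protein-coding genes tested had a lower one.

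*OST4* (chromosome 2, 27070472 to 27071654, minus strand) had 7198, 8085 and 6470 normalized counts in EV and 2191, 2448 and 2299 in PRL3. The groups were again far apart, and the log2 fold change was -1.65 (standard error 0.15). Its gene spans 1.18 kb, the shortest of the 10.

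*RPN1* and *RPN2* encode ribophorins I and II, membrane proteins that sit beside the ribosome at the translocon. *RPN1* (chromosome 3, 128619969 to 128681075, minus strand) had 14284, 15178 and 12310 normalized counts in EV and 4796, 5091 and 4420 in PRL3, a log2 fold change of -1.55 (standard error 0.15). *RPN2* (chromosome 20, 37178410 to 37241619, plus strand) had 21008, 18792 and 17002 in EV and 7611, 8024 and 7150 in PRL3, a log2 fold change of -1.32 (standard error 0.15). In both genes the EV libraries lay well above all PRL3 libraries. The 2 ribophorin genes thus held 2.92-fold and 2.49-fold more counts in EV.

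*DDOST* (chromosome 1, 20651767 to 20661544, minus strand) encodes the subunit OST48 of the core. Its libraries had 18806, 21134 and 17079 normalized counts in EV and 9915, 11063 and 8563 in PRL3. The groups stayed apart, with a smaller gap than in *DAD1*, *OST4*, *RPN1* and *RPN2*. The log2 fold change was -0.95 (standard error 0.16). The antisense gene *PINK1-AS*, with at most 1378 counts in a library, lies on the same strand as *DDOST* and shares 21.5% of the bases of its canonical transcript, and reads there could belong to either gene.

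The 2 catalytic subunits had log2 fold changes nearer to 0 than the 5 core genes above. *STT3A* (chromosome 11, 125591712 to 125625215, plus strand) had 10251, 7721 and 8055 normalized counts in EV and 5474, 5698 and 5121 in PRL3. *STT3B* (chromosome 3, 31532638 to 31637616, plus strand) had 6547, 3844 and 4846 in EV and 2615, 3049 and 3585 in PRL3. In *STT3B* the lowest EV library and the highest PRL3 library were near each other, and its EV libraries spread most widely of the 10 genes (coefficient of variation 26.9%). The log2 fold changes were -0.68 (standard error 0.15) for *STT3A* and -0.72 (standard error 0.20) for *STT3B*. With PRL3 library B9 left out *STT3B* was no longer called, at a log2 fold change of -0.61.

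Of the subunits found in 1 complex only, *OSTC* (chromosome 4, 108650585 to 108667820, plus strand), which ties STT3A to the translocon, had 2191, 1725 and 1770 normalized counts in EV and 792, 1002 and 1004 in PRL3. Its groups were clearly apart, and the log2 fold change was -1.02 (standard error 0.17). The files list 7 processed copies of *OSTC* elsewhere in the genome, with at most 135 counts in a library, so reads of near-identical copies could be split or lost. *TUSC3* (chromosome 8, 15417215 to 15766649, plus strand), the oxidoreductase of the STT3B complex, had 3372, 3447 and 2662 in EV and 1722, 2393 and 2317 in PRL3. Here EV library B3 stood only a little above PRL3 libraries B10 and B11, and the log2 fold change was -0.56 (standard error 0.17). Its call was lost when EV library B2 (log2 fold change -0.48) or PRL3 library B9 (-0.41) was left out.

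*KRTCAP2* (chromosome 1, 155169408 to 155173475, minus strand), the second subunit that joins STT3A to the translocon, had 501, 452 and 693 normalized counts in EV and 1115, 1013 and 1168 in PRL3. Every PRL3 value was above every EV value, the reverse of the other 9 genes, and the log2 fold change was 1.00 (standard error 0.20). The gene differed from the rest in how its exons are annotated. In GENCODE release 44 its merged exons cover 3814 bases, 93.8% of its span, because transcripts that keep introns are included, while its canonical transcript has 523 bases. Of those 523 bases, 438 (83.7%) also belong to exons of a protein-coding gene without a symbol, ENSG00000273088, on the same strand. That gene is listed with 0 counts in all 6 libraries. In the default mode of htseq-count, reads inside exons of both genes are set aside as ambiguous, and the mode used was not given in the sources used here, so the *KRTCAP2* counts may leave out most of the canonical transcript. The overlap and the retained introns were measured in a later annotation release than the one the authors counted with, and their part in the direction of *KRTCAP2* was not tested. Nor was that of the share of ambiguous reads, which was lower in PRL3 as given above.

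The remaining subunits, which were not among the 10 genes, were tested. *TMEM258*, a small membrane protein of the shared core, had 4976, 5297 and 5065 normalized counts in EV and 3277, 3836 and 3631 in PRL3. It fell in PRL3, the log2 fold change being -0.51 with a standard error of 0.14 (adjusted p = 0.010, edgeR quasi-likelihood). The call of *TMEM258* was lost without PRL3 library B9, at -0.44, and under library size alone, at -0.024. *MAGT1*, the paralog of *TUSC3*, had 2443, 1742 and 1758 in EV and 1692, 1523 and 1446 in PRL3. The libraries did not overlap, yet the log2 fold change of -0.35 (standard error 0.17) did not pass the threshold (adjusted p = 0.120 in the same fit). Under scaling by all uniquely aligned reads *MAGT1* was called lower, at -0.83, and under library size alone its value was 0.15.

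**Figure D2:**
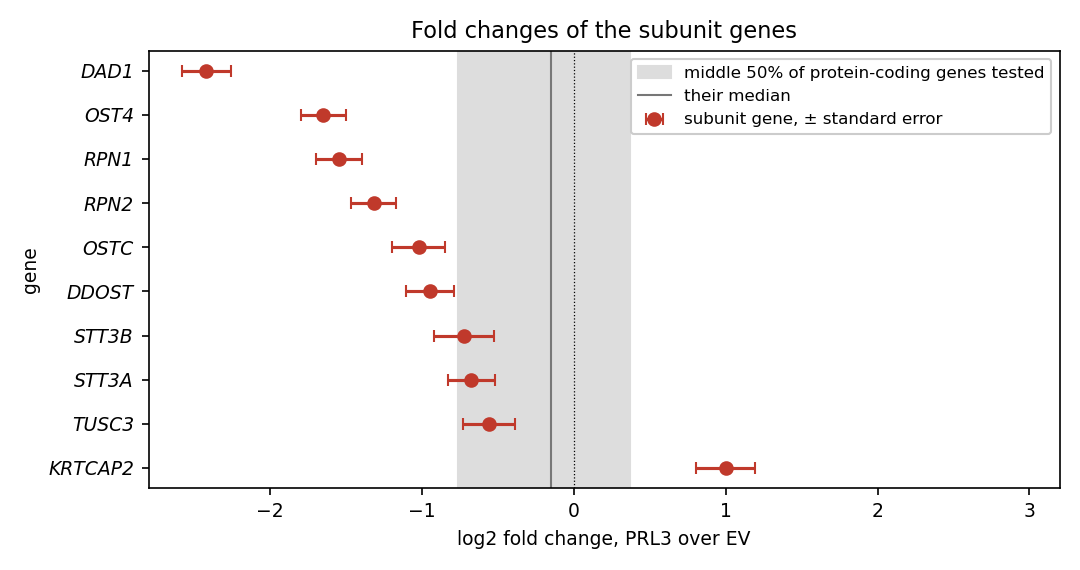
Log2 fold change of PRL3 over EV for the 10 subunit genes (points, with standard errors from the fit of all genes), beside the median (line) and the middle 50% (grey band) of the 14443 protein-coding genes tested. *DAD1* at -2.42 and *KRTCAP2* at 1.00 mark the ends, and *STT3B*, *STT3A* and *TUSC3* lie within the band.

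The choice of scaling moves every fold change. Over all tested genes the median log2 fold change was 0.11 under TMM scaling, 0.29 under upper-quartile scaling, 0.60 under library size alone and -0.37 under scaling by all uniquely aligned reads. The median of the 10 subunit genes moved with it, being -0.99, -0.81, -0.49 and -1.47 in the same order. Relative to all genes it was -1.10, -1.10, -1.09 and -1.09, values that could hardly differ, since scaling shifts all genes together by its construction. In the fit of protein-coding genes only, the median of the subunit genes was -0.835 relative to all genes of that fit. *DAD1* lay between -2.90 and -1.92 and *KRTCAP2* between 0.53 and 1.48 over the 16 alternatives run. No subunit gene changed sign in any of them. With library size alone, *STT3A* (-0.18), *STT3B* (-0.23) and *TUSC3* (-0.067) were not called. These are bulk samples, so fewer cells making a transcript and less of it made per cell cannot be told apart.

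Levels of different genes were compared per length, as CPM per kb of merged exons on the TMM scale. In EV, *OST4* stood highest at 257 ± 28.6 (SD, n = 3), followed by *DAD1* at 162 ± 21.5 and *DDOST* at 148 ± 15.9, whose libraries overlapped with those of *DAD1*. *RPN2* came next at 120 ± 12.7 and *RPN1* at 74.6 ± 7.86. *STT3A* (25 ± 3.96), *OSTC* (24.9 ± 3.37) and *STT3B* (21.5 ± 5.80) could not be separated from each other beyond their spread. *TUSC3* at 12.9 ± 1.77 and *KRTCAP2* at 3.05 ± 0.708 were lowest. The core genes thus had higher levels per kb of merged exons than the catalytic and complex-specific genes in EV. *KRTCAP2* was divided by 3814 merged bases, while its canonical transcript has 523, so its place in both groups depends on the length used.

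In PRL3 the order of the core genes was different. *OST4* at 81.8 ± 4.57 and *DDOST* at 76.8 ± 9.76 overlapped at the top, *RPN2* followed at 48.2 ± 2.77, and *DAD1* moved from the second to the fourth place per kb of merged exons, at 30.3 ± 2.74. *RPN1* had 25.5 ± 1.80. The lower 5 genes were *STT3A* (15.6 ± 0.838), *STT3B* (13.1 ± 2.06), *OSTC* (12.3 ± 1.61), *TUSC3* (8.77 ± 1.50) and *KRTCAP2* (6.12 ± 0.440), still in last place. The order depends on the length used. Per kb of the longest annotated transcript, *DAD1* took the third place in EV (180 ± 23.9, with *DDOST* at 190 ± 20.3) and the fifth in PRL3 (33.7 ± 3.05, with *RPN1* at 44.3 ± 3.13), and *DDOST* (98.3 ± 12.5) stood above *OST4* (87.8 ± 4.90) in PRL3.

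Summed over the 10 genes, the level was 895, 896 and 756 CPM per kb in EV and 309, 343 and 305 in PRL3. *DAD1* made up 20.2%, 18.6% and 18.3% of this sum in the EV libraries and 9.44%, 9.76% and 9.30% in the PRL3 libraries. Its share was thus smaller in each PRL3 library than in any EV library. The share of *DDOST* was 17.5% ± 1.01 (SD, n = 3) in EV and 24.1% ± 1.86 in PRL3, and that of *KRTCAP2* was 0.367% ± 0.124 in EV and 1.93% ± 0.254 in PRL3. How low the *KRTCAP2* share stood depends on its merged length of 3814 bases. The share of *RPN2* was near 14.2% ± 0.801 in EV and 15.1% ± 0.448 in PRL3, values that overlap between the groups. With *MAGT1* and *TMEM258* added to the sum, a choice made after seeing the data, *DAD1* held 18.2% ± 1.01 and 8.70% ± 0.236.

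**Figure D3:**
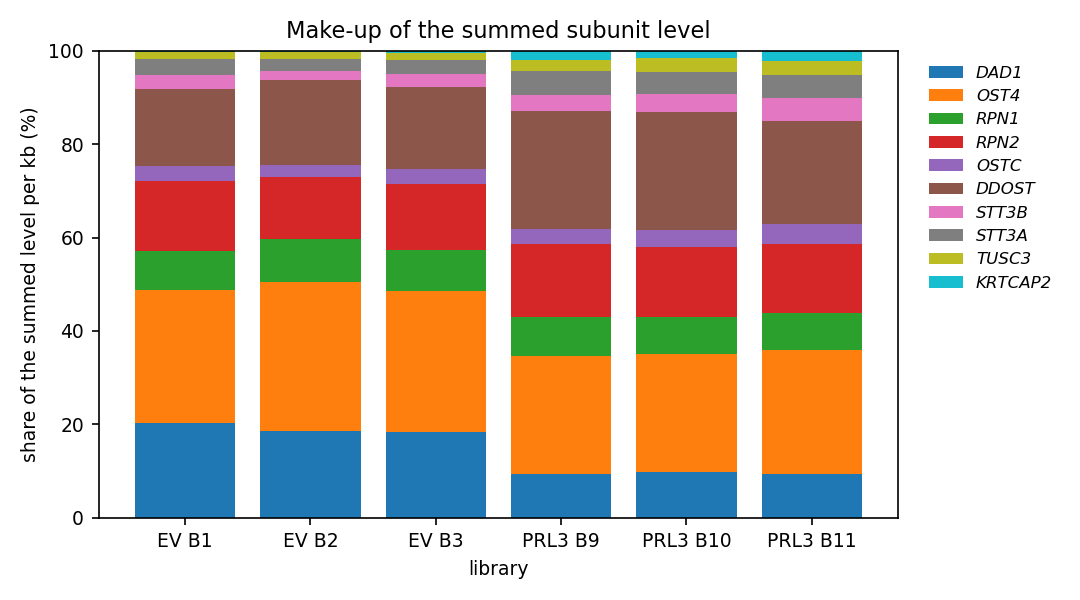
Share of each subunit gene (%) in the summed level per kb of the 10 genes, for each of the 6 libraries. The *DAD1* segment at the base goes from between 18.3% and 20.2% in EV to between 9.30% and 9.76% in PRL3, and the *DDOST* segment is wider in PRL3.

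Ratios between subunits within a library do not depend on the scaling between libraries. *STT3A* over *STT3B*, the balance of the 2 catalytic subunits, was 1.06, 1.36 and 1.13 in EV and 1.42, 1.27 and 0.970 in PRL3, with overlap between the groups. *TUSC3* over *MAGT1*, the 2 oxidoreductases, was 2.13 ± 0.411 (SD, n = 3) in EV and 1.83 ± 0.430 in PRL3 and overlapped too. *DAD1* over *STT3A* was 6.13, 7.50 and 5.98 in EV and 1.85, 2.04 and 1.92 in PRL3, which lie far apart. *DAD1* over *RPN1*, both from the shared core, was 2.17 ± 0.168 in EV and 1.19 ± 0.0475 in PRL3. *KRTCAP2* over *OSTC*, the 2 genes that link STT3A to the translocon, was 0.125 ± 0.0364 in EV and 0.506 ± 0.0851 in PRL3. The size of this ratio depends on the merged lengths used, which are the same in both groups.

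Short and long subunit genes were compared next, a short gene being a gene whose span from the start of its first exon to the end of its last is under 10 kb. The 3 short subunit genes were *OST4* (1.18 kb, log2 fold change -1.65), *KRTCAP2* (4.07 kb, 1.00) and *DDOST* (9.78 kb, -0.95). The short genes had a median log2 fold change of -0.95 and the 7 long genes one of -1.02, a difference of 0.074. Over the protein-coding genes tested, the median was -0.64 for 2782 short genes and -0.075 for 11661 long genes, a difference of -0.57. The subunit genes therefore did not follow the order that all protein-coding genes had at this bound, and *KRTCAP2* is 1 of only 3 values in the short group.

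With the bound at 25 kb the 5 shorter subunit genes, now with *DAD1* (24.3 kb) and *OSTC* (17.2 kb), had a median log2 fold change of -1.02 and the 5 longer genes one of -0.72. *DAD1* lies just inside that bound and *STT3A* (33.5 kb) is the next gene beyond it. The longer genes were *RPN1* (61.1 kb), *RPN2* (63.2 kb), *STT3A*, *STT3B* (105 kb) and *TUSC3* (349 kb). The difference was -0.30 in the subunit genes and -0.49 in all protein-coding genes. The 2 longest, *STT3B* and *TUSC3*, had log2 fold changes nearer to 0 than those of *RPN1* and *RPN2*.

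Exonic length, the number of bases in merged exons, ordered the 10 genes more closely than span did. *OST4* (600 bases) and *DAD1* (761 bases) were the shortest and had the lowest fold changes, and *STT3A* (7369 bases), *TUSC3* (5190) and *STT3B* (5006) were the longest and had the values nearest to 0 among the 9 lower genes. Spearman's rho of log2 fold change with exonic length was 0.71 over the 10 genes and 0.28 over the 14443 protein-coding genes tested. With span it was 0.20 over the 10 genes and 0.30 over the protein-coding genes. *KRTCAP2*, the gene with the highest fold change, enters here with 3814 merged bases, while its canonical transcript has 523. The order by exonic length therefore depends on the length used, and a correlation with canonical lengths was not run. These are correlations across genes of the same 6 libraries, which are not independent replicates.

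Set beside protein-coding genes of like exonic length, the subunit genes mostly lay lower. The 240 genes with under 1000 exonic bases had a median log2 fold change of -0.61 and a lower quartile of -1.61, so *OST4* sat just below that quartile and *DAD1* well below it. For 2000 to 4000 bases the median was -0.48 and the lower quartile -1.08. *RPN1* and *RPN2* were below that quartile, *DDOST* lay between the quartile and the median, and *KRTCAP2* was above the upper quartile of 0.16. For 4000 to 8000 bases the median was -0.12 and the lower quartile -0.66, near which *STT3A*, *STT3B* and *TUSC3* were found. *OSTC* (1616 bases) lay between the median of -0.84 and the lower quartile of -1.51 of its bin.

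The share of the span that is exonic was added as a measure after the values of *KRTCAP2* had been seen. Of protein-coding genes with over 50% of their span in exons, 44.9% were called lower and 12.5% higher, with a median log2 fold change of -0.50. *OST4* (50.7%) and *KRTCAP2* (93.8%) belong to this bin and lie on opposite sides of that median. Genes with under 5% of their span in exons had a median of 0.12, and *DAD1* (3.13%), *STT3B* (4.77%) and *TUSC3* (1.49%) in this bin were all lower.

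**Figure D4:**
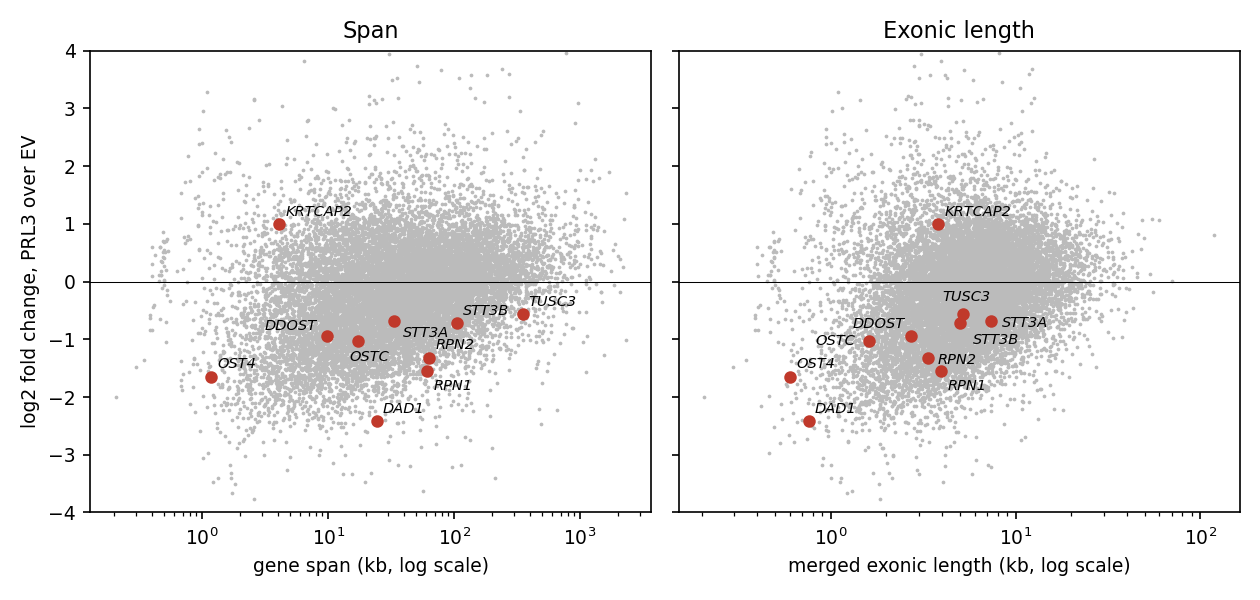
Log2 fold change of PRL3 over EV against gene span (left, kb, log axis) and merged exonic length (right, kb, log axis) for the protein-coding genes tested (grey) and the 10 subunit genes (red). Both panels stop at a log2 fold change of 4 in either direction, which leaves out 28 genes, and *DAD1* and *OST4* stand at the lower left of the right panel.

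The genes that act before, beside and after oligosaccharyltransferase were tested together with its subunits *TMEM258* and *MAGT1*, which form a list of their own. They came to 74 genes in 6 lists grouped by function, and all 74 genes passed the filter. Of these, 43 fell and 5 rose in PRL3, and 26 did not pass the threshold (edgeR quasi-likelihood, Benjamini-Hochberg over all genes). The log2 fold changes of the 74 had a median of -0.59, where all genes tested had 0.11 and protein-coding genes -0.15. The 43 and 5 genes are 58.1% and 6.76% of the 74, beside 31.6% and 15.2% of all protein-coding genes tested. The lists were drawn up with earlier results of these data known, so these shares are given as description only. Without PRL3 library B10, and without B11, 3 genes rose. Under library size alone 28 fell and 14 rose, and under scaling by all uniquely aligned reads 60 fell and 2 rose. In each of the 6 lists the median was negative.

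Of 24 genes that build the lipid-linked sugar donor, 11 fell and 4 rose, with a median log2 fold change of -0.33. These are 45.8% and 16.7% of the list, beside 31.6% and 15.2% of all protein-coding genes tested. Without PRL3 library B9, and without B11, 6 fell. Under library size alone 3 fell and 8 rose, and under scaling by all uniquely aligned reads 16 fell and 2 rose. *DPM3*, a subunit of dolichol-phosphate mannose synthase, fell by 1.61 on the log2 scale (adjusted p = 3.25e-05, edgeR quasi-likelihood). *MPDU1*, needed for the use of dolichol-linked sugars (-1.49), and *ALG3*, a mannosyltransferase (-0.96), fell as well. The mannosyltransferases *ALG11* (1.34) and *ALG9* (1.09) and the glucosyltransferase *ALG10B* (0.91) rose. *ALG10B* has a close paralog in *ALG10* (0.67), and reads could be split between them. This list had 4 of the 5 genes that rose, but its share of rising genes was near that of all protein-coding genes.

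In the TMM fit of all 6 libraries, the genes that act on the glycan after transfer and at the membrane were called in 1 direction. Of 16 genes of glycan trimming and lectin-assisted folding, 10 fell and 0 rose, with a median log2 fold change of -0.90, led by *GANAB*, the catalytic subunit of glucosidase II (-1.63), *PDIA3*, a disulfide isomerase that works with calnexin and calreticulin (-1.59), and *OS9*, a lectin of ER-associated degradation (-1.59). Of 14 genes of the translocon and the TRAP complex, 8 fell and 0 rose, with a median of -0.70. *SEC61G* (-2.04) and *SEC61B* (-1.44), the small subunits of the translocon channel, and *SSR4* (-1.68), a TRAP subunit, had the lowest values. Under library size alone 3 translocon and TRAP genes and 1 trimming gene were called higher, and 1 translocon or TRAP gene was called higher under upper-quartile scaling, with at least 10 counts in every library, with protein-coding genes only and without EV library B1. Of 5 signal peptidase genes, *SPCS1* (-1.41), *SEC11C* (-1.07) and *SEC11A* (-0.86) fell, and the other 2 did not pass, though all 5 were called lower under scaling by all uniquely aligned reads.

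Of 13 chaperones and regulators induced by ER stress, 10 fell and 1 rose, with a median log2 fold change of -0.99, the same to 2 decimals as that of the subunit genes. *SDF2L1* (-1.61), *PDIA6* (-1.59) and *CRELD2* (-1.56), which assist folding in the ER, fell most. *HERPUD1*, a membrane protein of ER-associated degradation, rose by 0.43 (adjusted p = 0.0265, edgeR quasi-likelihood), and with scaling by all uniquely aligned reads its log2 fold change was -0.048. Its call was also lost without PRL3 library B10 (0.37) or B11 (0.44), which left 0 called higher in this list. The number called higher was 2 without EV library B1, EV library B3 or PRL3 library B9, and also with DESeq2 and limma-voom. It was 2 as well under upper-quartile scaling, library size alone, at least 1 count in any library, at least 10 in every library and protein-coding genes only. With all uniquely aligned reads, and at an adjusted p of 0.01, it was 0.

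**Figure D5:**
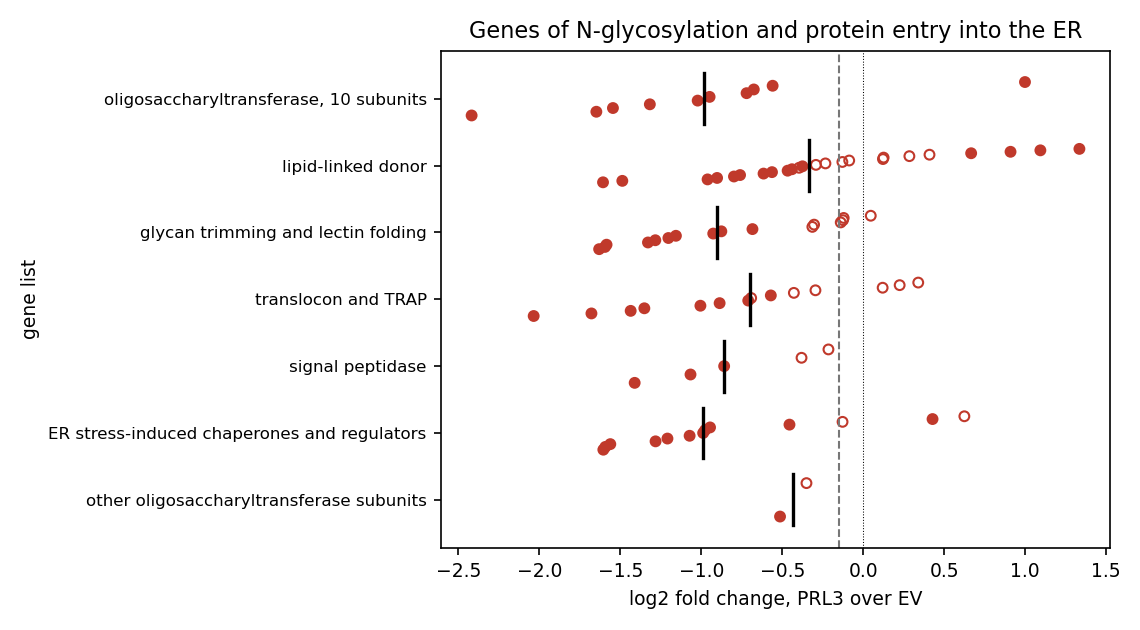
Log2 fold change of PRL3 over EV for the 10 subunit genes and for the 74 other genes of the pathway by list. Filled points passed the adjusted p of 0.05, open points did not, black bars are medians, and the dashed line is the median of protein-coding genes (-0.15), to the right of the median of every list.

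The nearest tested protein-coding gene on each side of each subunit gene was examined to see what the surrounding genes did. Of 20 such neighbours, 9 fell, 3 rose and 8 did not pass the threshold, where 31.6% of protein-coding genes tested were called lower and 15.2% higher. The neighbours had a median log2 fold change of -0.39, between the medians of protein-coding genes (-0.15) and of the subunit genes. Without EV library B3, 5 rose. On 1 side of *DAD1*, 9.07 kb away on the opposite strand, the lipase gene *ABHD4* fell by 0.57 on the log2 scale (standard error 0.21, adjusted p = 0.0417, edgeR quasi-likelihood). That call was lost in 5 of the 6 fits that left out 1 library. On the other side the nearest tested gene was *SALL2*, 1027.69 kb away, with a log2 fold change of -0.51 (adjusted p = 0.106 in the same fit). Both values were far nearer to 0 than the -2.42 of *DAD1*.

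Around the other core genes, both neighbours of *OST4* fell, *EMILIN1* with a log2 fold change of -1.77 and *AGBL5* with -0.98, and the 3′ end of *AGBL5* overlaps *OST4* on the opposite strand. The kinase gene *PINK1*, beside *DDOST*, had a log2 fold change of -1.42, and *KIF17* on its other side one of 0.51 without passing. Without EV library B3 *KIF17* was called higher (1.20). *RAB7A* beside *RPN1* had -0.61 and *MANBAL* beside *RPN2* had -0.73, both called. Both calls were lost under library size alone (*RAB7A* -0.10, *MANBAL* -0.23), and that of *RAB7A* also without PRL3 library B11 (-0.52). *GATA2* (0.29) and *MROH8* (0.81) on their other sides did not pass the threshold in the main fit. Both were called higher under upper-quartile scaling (0.46 and 0.98), library size alone (0.77 and 1.30) and with protein-coding genes only (0.47 and 0.99). *MROH8* was also called higher with limma-voom, with at least 1 count in any library, with at least 10 counts in every library and without EV library B2.

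Around the catalytic genes, *EI24* before *STT3A* fell by 1.45, and *CHEK1* behind it had a log2 fold change of -0.27 without passing, though it was called lower under scaling by all uniquely aligned reads (-0.75). *TGFBR2* rose by 0.67 on 1 side of *STT3B* (0.20 and not called under scaling by all uniquely aligned reads), and *OSBPL10* on the other had 0.39 without passing, so *STT3B* stood between genes with positive values under TMM scaling. *OSBPL10* was called higher under upper-quartile scaling (0.56), library size alone (0.88), with at least 10 counts in every library, with protein-coding genes only and without EV library B3. The ribosomal protein gene *RPL34* beside *OSTC* fell by 1.06, while *SEC24B* (0.12) did not pass, though it was called higher under library size alone (0.63). *TUSC3* lies between *SGCZ*, which had 0, 0 and 1 counts in EV and 85, 87 and 35 in PRL3, and *MSR1*, which rose by 1.31. *KRTCAP2* lies between *DPM3*, which fell by 1.61 as given above, and *TRIM46*, with a log2 fold change of -0.041 that turned positive under other settings.

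The protein-coding genes whose pattern over the 6 libraries was most like that of *DAD1* were found by the root mean square distance of log2 values centred over the libraries. They were *NDUFS5*, a subunit of respiratory complex I (0.064), *PSME1*, an activator of the proteasome (0.088), *CFI*, complement factor I (0.095), *MMP1*, an interstitial collagenase (0.108), and *HLA-B* (0.111), whose reads may be split with its paralogs. None is an oligosaccharyltransferase gene. Among the subunit genes *OST4* was nearest at 0.397, with 476 as its rank among 14442 genes, *RPN1* followed at 0.441 and *RPN2* at 0.552. *KRTCAP2* was farthest at 1.75. These distances rest on the same 6 libraries and mostly reflect the difference between the groups.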

How the data were processed

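RNA was pulled down after 4sU labelling, depleted of ribosomal RNA and sequenced as strand-specific paired reads. The authors aligned reads to GRCh38 with STAR 2.5.1b and deposited raw counts per Ensembl gene from htseq-count 0.6.1 in its reverse-strand mode (annotation release 91), with no normalization. FastQC 0.11.3 is also listed in the submitters' processing notes. How htseq-count treated reads overlapping several genes was not given in the sources used here. Rows that name no gene (reads on no exon, ambiguous or aligned to several places) were kept out of library sizes. Reads on no exon made up 28.7% to 69.1% of uniquely aligned reads.

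Symbols and exons came from GENCODE release 44, which matched 57532 of 58243 identifiers. The PRL3 group was set against EV with edgeR 4.0.16 in R 4.3.3 (TMM scaling, filterByExpr with group, quasi-likelihood test, Benjamini-Hochberg adjustment over 23884 genes, threshold 0.05). Standard errors come from the F statistic. To normalize, each count was divided by its library's effective size and multiplied by the mean of these sizes. TMM factors were 0.816 to 0.894 in EV and 1.12 to 1.25 in PRL3. On data simulated from these libraries, with 187 of 22919 genes in the fit changed 2-fold, 77 were recovered (41.2%). There 6 of 22732 unchanged genes were called, and a 2-fold change could be missed. In the data 5426 genes were called lower and 4783 higher, far more than were changed in the simulation, so the 41.2% need not hold for this comparison. No pair of libraries was alike within sampling noise (lowest chi-square, averaged over genes, 22.6), and each was counted as 1 replicate.

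The members and the lists of genes were chosen with earlier results of these data known. The genes named are the 10 subunit genes, *MAGT1*, *TMEM258*, both neighbours of each subunit gene, *PTP4A3*, in each list the 3 called genes lowest and the 3 highest by log2 fold change, and the 5 genes nearest to *DAD1*. Named outside this rule, after their values were seen, were *ALG10*, *PINK1-AS* and ENSG00000273088. Alternatives were scaling by RLE, upper quartile, library size, or all uniquely aligned reads, DESeq2 1.42.0, limma-voom (limma 3.58.1), filters of 1 count in any and 10 counts in every library, protein-coding genes only, an adjusted p of 0.01, other lengths and bounds, and leaving out each library. Reads by position along a gene, intronic reads and other parts of the study were not analysed here.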

Additional observations from a re-analysis of the deposited data

Results flagged for a closer look

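The count files also record reads that lay on no annotated exon, which the comparisons of genes do not use. Among uniquely aligned reads their share was 30.2%, 28.7% and 41.1% in the EV libraries and 69.1%, 62.8% and 66.9% in the PRL3 libraries, a mean of 66.3% in PRL3, and are listed here because this unused signal was above the level of the controls. The difference of 32.9 percentage points had an exact permutation p of 0.1 (two-sided), the smallest that 3 libraries against 3 allow. Their part in the values of the subunit genes was not tested, and the counts per gene do not show where along a gene such reads lie.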

How the results depend on the processing

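*DAD1*, *OST4*, *RPN1*, *RPN2*, *DDOST*, *OSTC* and *KRTCAP2* kept their direction and their call in each of the 16 alternatives, *STT3A* in 15, *STT3B* in 14 and *TUSC3* in 10, and no subunit gene reversed. Library size alone gave 3078 lower and 9514 higher genes, with all uniquely aligned reads 8525 and 1912, and at an adjusted p of 0.01 2719 were higher. Of the 74 pathway genes, 28 were lower under library size alone and 60 with all uniquely aligned reads. The higher genes among them numbered 9 with upper-quartile scaling, 14 with library size, 2 with all uniquely aligned reads, 8 with at least 10 counts in every library, 9 with protein-coding genes only and 3 at 0.01. Leaving out 1 library gave 3 (without PRL3 library B10 or B11) to 7. Neighbours that rose numbered 6 with upper-quartile scaling, 7 with library size and 6 with protein-coding genes only, and 3 to 5 (5 without EV library B3) with 1 library left out. The level per length of *DAD1* in EV was 136 with library size alone. Signs reversed for *MAGT1* (0.15) and *CHEK1* (0.22) with library size, while both were called lower with all uniquely aligned reads (-0.83 and -0.75), for *HERPUD1* (-0.048), *GATA2* (-0.18), *OSBPL10* (-0.087) and *SEC24B* (-0.36) with all uniquely aligned reads, for *SEC24B* without PRL3 library B9 (-0.020, and up to 0.31 with another library left out), and for *TRIM46* with upper-quartile scaling (0.13), library size (0.44), at least 10 counts in every library (0.00076) and protein-coding genes only (0.13), and with 1 library left out it ranged from -0.27 to 0.15, with 0.043 and 0.046 among the positive values. Scaling shifts all genes together by its construction, and the cause of the other changes was not tested. *TMEM258* was not called with upper-quartile scaling, library size, protein-coding genes only, at 0.01 or without PRL3 library B9. No paired analysis was possible because EV and PRL3 libraries carry different numbers. Depth did not limit the subunit genes, whose lowest count in a library was 376.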

Other observations

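2 small genes lie inside subunit genes on the same strand and passed the filter. *POU5F1P6*, a pseudogene within *RPN1*, had 0, 5 and 0 counts in EV and 22, 27 and 13 in PRL3, so it was higher in PRL3 while *RPN1* was lower (log2 fold change 3.23, standard error 1.22, adjusted p = 0.0473, edgeR quasi-likelihood). *RNU6-431P*, a small nuclear RNA gene copy within *OSTC*, had 11, 3 and 15 counts in EV and 35, 32 and 13 in PRL3, and its log2 fold change of 1.25 (standard error 0.81) did not pass the threshold (adjusted p = 0.236 in the same fit). The counts are low, and reads on these genes cannot be told apart from reads of the intron of the host gene.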
